A study of Homo sapiens with 6 samples.

Results

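PRDX1, SRXN1, TXN and TALDO1 are 4 redox genes that are known targets of the transcription factor NRF2, taken from the 14884 genes that had a value under a single gene name in THP-1 cells. They were chosen because an earlier analysis of the same arrays had found them higher when RKIP was depleted, and each was read from the probe with the highest mean over the 6 arrays. Each of the 4 had exactly 1 named probe. Their differences between the groups are therefore given as a description, with no test. TXN had the smallest difference among the 4, at 0.30 on the log2 scale, and among the listed NRF2 targets that did not pass the test, GSR had the largest upward difference, at 0.26.

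THP-1 is an established human cell line derived from an acute monocytic leukaemia. Cells were transduced with a psi-LVRU6GP lentiviral vector, which was either empty (control, 3 arrays) or carried a hairpin against RKIP (RKIP shRNA, 3 arrays). Both groups were kept under puromycin at 1.5 µg/mL. Total RNA was measured on Affymetrix Human Gene 2.0 ST arrays, and all values are the deposited log2 values. The comparison asks which genes change in these leukaemia cells when RKIP, the Raf kinase inhibitor protein, is reduced. The labels call the arrays biological replicates but do not say whether they came from separate transductions or from cultures of the same transduced pool. The p-values then measure only how far these arrays spread, and that spread may be technical. Since the control vector was empty, the groups differ in the presence of a hairpin as well as in its target.

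NRF2, encoded by NFE2L2, is held at low levels by KEAP1, which delivers it to a CUL3 ubiquitin ligase. When electrophiles or oxidants modify KEAP1, NRF2 accumulates, pairs with a small MAF protein and binds antioxidant response elements. Its targets include genes that remove peroxides, keep thiols reduced and supply NADPH. Peroxiredoxins reduce peroxides and are recycled by thioredoxin, which thioredoxin reductase regenerates with NADPH. Sulfiredoxin rescues peroxiredoxins that have been over-oxidised.

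PEBP1, which encodes RKIP, stood at 9.68 ± 0.14 in control and at 8.22 ± 0.04 in RKIP shRNA arrays (SD, n = 3 each) and fell by 1.46 on the log2 scale (limma adjusted p = 0.00023). For PEBP1 by itself, an exact two-sided permutation test over the 6 arrays gave p = 0.10, below which 3 against 3 cannot go. Array medians lay between 4.06 and 4.10. Of 12 listed monocyte markers 7 had a value, and LYZ, CD68 and SPI1 rose while CD14, CD36 and CD163 lay below the median of all values, 4.08, in both groups. The summed log2 level of these 7 markers ranged from 35.5 to 35.9 in control and from 38.7 to 40.1 in RKIP shRNA arrays. Most of this difference came from LYZ, at 2.55, against 0.37 for CD68 and 0.49 for SPI1. CSF1R had a difference of 0.22 and did not pass. Over all genes, 10.0% were called higher and 10.2% lower at a limma adjusted p under 0.05. Of 16 measured markers of T, B, epithelial, erythroid and fibroblast cells, 2 rose (CD5 and FN1) and 2 fell (VPREB3 and KRT18). Their summed log2 levels ranged in control and in RKIP shRNA arrays from 17.9 to 18.7 and from 18.4 to 18.6 for T cells, from 10.8 to 11.0 and from 10.3 to 10.5 for B cells, and from 23.5 to 24.0 in both groups for epithelial cells. The corresponding ranges were 11.2 to 11.6 and 11.3 to 11.8 for erythroid cells and 8.20 to 8.38 and 9.22 to 9.54 for fibroblasts. Of the fibroblast markers, DCN and LUM were below the median of all values in both groups. FN1 rose by 0.86, from 3.98 to 4.84 (limma adjusted p = 0.0011). COL1A1, COL1A2 and COL3A1 had no value. The part of the cell type markers in the differences below was not tested. In bulk RNA a change in the share of cells and a change in RNA per cell cannot be told apart.

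PRDX1 encodes peroxiredoxin 1, an abundant cytosolic enzyme that reduces hydrogen peroxide. Its log2 value was 9.86, 10.01 and 9.94 in control replicates 1 to 3 and 11.07, 10.88 and 11.10 in RKIP shRNA replicates 1 to 3. Every RKIP shRNA array lay above every control array, and the gap between the nearest arrays, 0.87, exceeded the range within either group, which was 0.15 in control and 0.22 in RKIP shRNA. The group means were 9.94 ± 0.07 and 11.02 ± 0.12 (SD, n = 3 each), a log2 difference of 1.08 (SE 0.09) or 2.11-fold. By the size of the upward difference PRDX1 ranked 49 of 14884 genes.

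SRXN1 encodes sulfiredoxin, which reduces over-oxidised peroxiredoxins such as the PRDX1 product. Its log2 value was 6.09, 6.41 and 6.27 in control arrays and 7.10, 6.89 and 6.97 in RKIP shRNA arrays. The groups did not overlap, although SRXN1 had the widest control range of the 4 genes, 0.32. The gap between the nearest arrays was 0.48. The means were 6.26 ± 0.16 and 6.99 ± 0.11 (SD, n = 3 each), a log2 difference of 0.73 (SE 0.10) or 1.66-fold.

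TXN encodes cytosolic thioredoxin, the electron donor of peroxiredoxins and of ribonucleotide reductase. Its log2 value was 10.79, 10.65 and 10.60 in control arrays and 10.99, 10.90 and 11.04 in RKIP shRNA arrays. The groups did not overlap, but the gap of 0.11 was smaller than the range within control arrays, 0.18, and within RKIP shRNA arrays, 0.14. Control replicate 1 was the highest control array and lay closest to the RKIP shRNA group. The means were 10.68 ± 0.10 and 10.98 ± 0.07 (SD, n = 3 each), a log2 difference of 0.30 (SE 0.08) or 1.23-fold.

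TALDO1 encodes transaldolase, an enzyme of the non-oxidative branch of the pentose phosphate pathway, whose oxidative branch makes NADPH. Its log2 value was 7.61, 7.62 and 7.54 in control arrays and 7.98, 7.94 and 8.04 in RKIP shRNA arrays. TALDO1 had the tightest groups of the 4 genes, with ranges of 0.08 in control and 0.11 in RKIP shRNA arrays, and the gap between groups was 0.32. The means were 7.59 ± 0.05 and 7.98 ± 0.05 (SD, n = 3 each), a log2 difference of 0.39 (SE 0.07) or 1.31-fold.

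**Figure D1:**
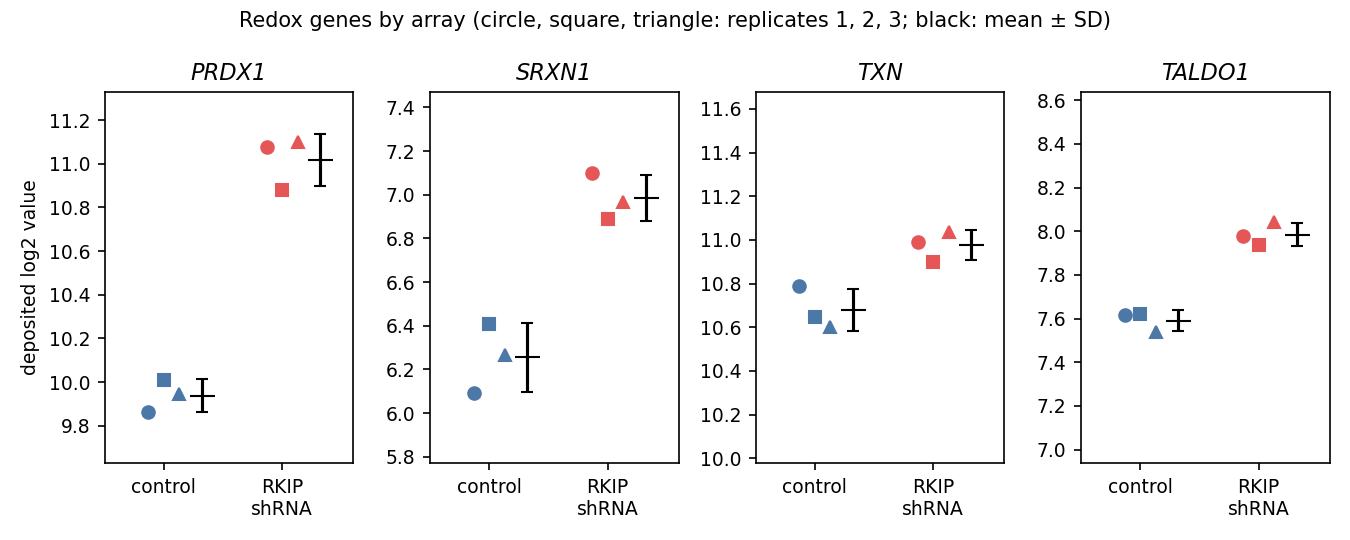
Deposited log2 values of PRDX1, SRXN1, TXN and TALDO1 in the 3 control arrays (blue) and the 3 RKIP shRNA arrays (red), with circles, squares and triangles for replicates 1, 2 and 3 and the black bars showing mean ± SD. All panels span the same log2 range, and in each the RKIP shRNA arrays lie above the control arrays, with the widest gap, 0.87, for PRDX1 and the narrowest, 0.11, for TXN.

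Over all genes, 19.8% had every RKIP shRNA array above every control array, 20.2% were called in either direction at a limma adjusted p under 0.05 and 10.0% were called higher. Since the 4 genes were chosen from this contrast, nothing is read from their count against these shares. Within the RKIP shRNA group, replicate 2 was the lowest array for all 4 genes, by 0.14 below the group mean for PRDX1, 0.10 for SRXN1, 0.08 for TXN and 0.05 for TALDO1. Replicate 2 was also the lowest RKIP shRNA array for 45.5% of the 1491 other genes called higher and for 38% of all 14880 other genes. The control arrays had no such common order: replicate 1 was lowest for PRDX1 and SRXN1, and replicate 3 was lowest for TXN and TALDO1. Leaving out 1 array at a time gave differences of 1.04 to 1.15 for PRDX1, 0.65 to 0.81 for SRXN1, 0.26 to 0.35 for TXN and 0.37 to 0.42 for TALDO1.

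The genes whose profile over the 6 arrays lay nearest to each of the 4 were found by the root mean square difference of log2 values, each gene taken relative to its own control mean, among genes with a mean above 4.08. This measure is dominated by the difference between the groups and is a description. For PRDX1 the nearest was MANF, a secreted endoplasmic reticulum stress protein, at 0.04, followed by the proton-sensing receptor gene GPR65 and the transcription factor gene DACH1, both at 0.08. GPR65 had a control mean of 3.74, below 4.08, and passed this filter only through its higher RKIP shRNA arrays. SRXN1 was nearest to the non-coding gene LINC01963 (0.04), the growth factor gene GDF11 (0.06) and VPS25 (0.07), a subunit of the ESCRT-II complex. TXN was nearest to ELP6 (0.02), FBXW5 (0.03) and MRPS11 (0.03), which encode an Elongator subunit, an F-box protein and a mitochondrial ribosomal protein. TALDO1 was nearest to the spindle protein gene NUSAP1 (0.01), to ATP5MK (0.02) and to VDAC3 (0.02), which encodes a channel of the mitochondrial outer membrane. Among the 4 genes themselves the closest profiles were those of TALDO1 and TXN, at 0.08, and the farthest those of PRDX1 and TXN, at 0.56.

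The 250 bases before the RefSeq start of SRXN1, TXN and TALDO1 are shown because the 4 genes were higher together and NRF2 acts through short promoter elements. The windows are chr20:653201-653450 on the minus strand, chr9:110256508-110256757 on the minus strand and chr11:747214-747463 on the plus strand of GRCh38.p14, each written 5′ to 3′ along its gene. Capitals mark matches to any of 5 motifs searched on both strands, namely the antioxidant response element core TGACNNNGC, the GC box GGGCGG, the TATA box TATAAA, the AP-1 element TGACTCA and the CCAAT box CCAAT.
SRXN1 promoter: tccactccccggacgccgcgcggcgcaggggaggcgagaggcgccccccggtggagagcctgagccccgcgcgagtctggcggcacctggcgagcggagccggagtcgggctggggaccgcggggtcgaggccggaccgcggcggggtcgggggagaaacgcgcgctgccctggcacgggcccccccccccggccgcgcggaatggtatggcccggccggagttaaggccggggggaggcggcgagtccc
TXN promoter: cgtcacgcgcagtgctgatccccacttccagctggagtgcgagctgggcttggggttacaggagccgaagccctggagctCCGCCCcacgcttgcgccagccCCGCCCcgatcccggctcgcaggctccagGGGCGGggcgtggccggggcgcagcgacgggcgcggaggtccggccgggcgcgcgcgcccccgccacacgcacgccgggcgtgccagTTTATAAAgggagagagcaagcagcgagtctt
TALDO1 promoter: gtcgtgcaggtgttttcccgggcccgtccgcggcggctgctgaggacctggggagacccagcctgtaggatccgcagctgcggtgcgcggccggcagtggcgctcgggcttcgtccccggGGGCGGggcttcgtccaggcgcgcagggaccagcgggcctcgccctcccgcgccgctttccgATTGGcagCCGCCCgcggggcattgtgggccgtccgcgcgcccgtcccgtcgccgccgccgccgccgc
None of the 3 windows held TGACNNNGC or TGACTCA, which says only that these letters are not in these windows. TGACNNNGC was present in 11% of 27305 RefSeq windows of the same length, and TGACTCA in 4.16%. The TXN window held 3 GC boxes, the nearest starting 119 bases before the start, and a TATA box starting 30 bases before it. The TATA box overlaps a match on the opposite strand (TTTATA), so both lie in the same capitals. The TALDO1 window held 2 GC boxes and a CCAAT box on the opposite strand starting 68 bases before the start. GC boxes were found in 42.3%, TATA boxes in 11.1% and CCAAT boxes in 33% of all windows. The SRXN1 window held none of the 5 motifs, and 80.4% of its bases were G or C, against 73.6% for TXN and 78.4% for TALDO1.

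The rest of the redox system was read from 8 lists, from which the 4 genes were left out. Of 160 listed genes 101 had a value, 20 rose, 9 fell and 72 did not pass (limma, Benjamini-Hochberg adjusted p under 0.05 over all genes). These are 19.8% higher and 8.91% lower, where the shares over all 14884 genes were 10.0% and 10.2%. The median log2 difference was 0.10, against 0.02 over all genes. The count of genes that rose was 13 without control replicate 2 and 12 without RKIP shRNA replicate 1. The count that fell was 4 without control replicate 2 or RKIP shRNA replicate 1, and 5 without control replicate 1, control replicate 3 or RKIP shRNA replicate 2. Of the 101 genes 18 were dim, with a mean below 4.08 in at least 1 group, against 5449 of all 14884. The shares here and in the lists below are therefore not matched for brightness. A fit to genes with a mean above 4.08 called 1887 genes higher and 1808 lower, against 1495 and 1515 in the fit to all genes. Of the redox genes it called 26 higher and 15 lower. The part of brightness in the shares was not tested. NQO1, GCLC, GCLM, SLC7A11, BACH1, MAFK, PRDX5, CYBB and CYBA had no named probe and were not analysed here.

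**Figure D2:**
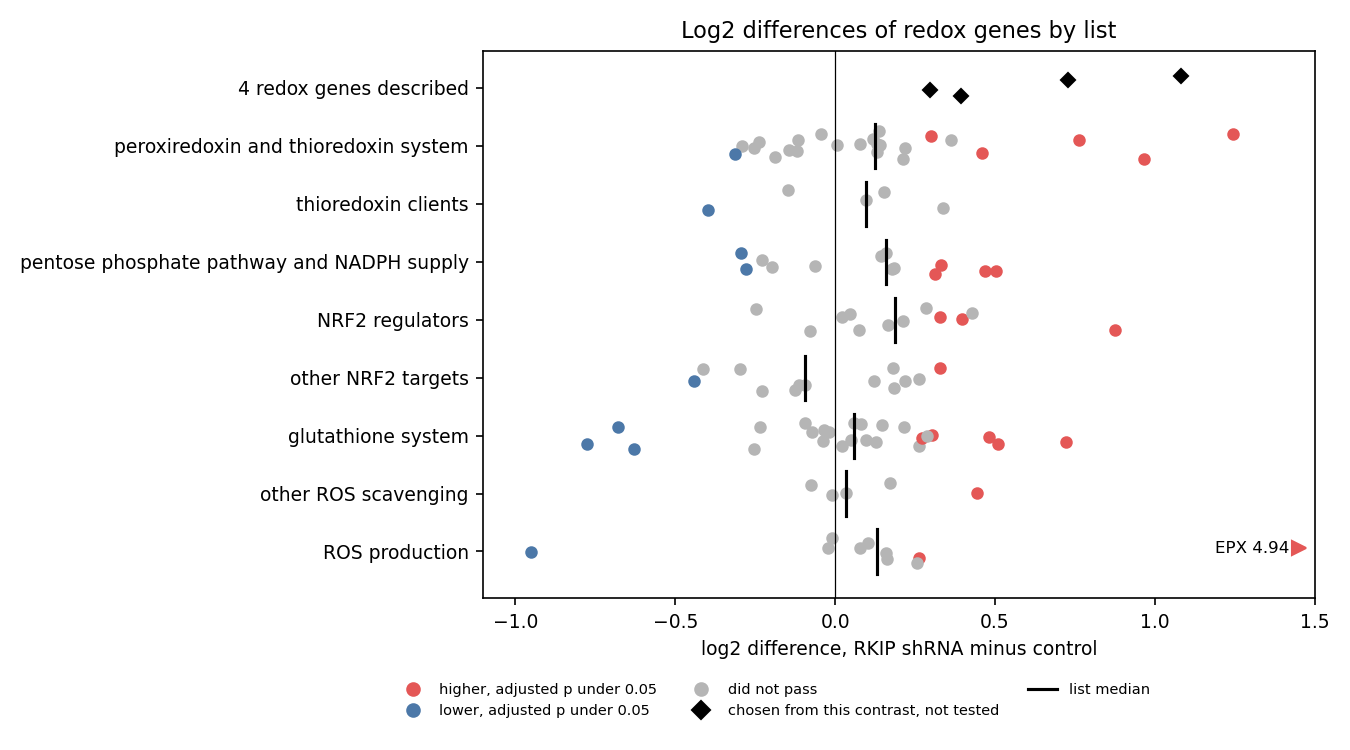
Log2 difference, RKIP shRNA minus control, of every measured gene in the 8 redox lists, with the 4 genes described here as black diamonds in the top row. Red and blue points passed the test as higher or lower, grey points did not, black lines are list medians and the vertical jitter carries no information. EPX, at 4.94, lies beyond the axis and is drawn as an arrow.

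The other peroxiredoxins did not move alike. PRDX4, the peroxiredoxin of the endoplasmic reticulum, stood at 5.65, 5.65 and 5.80 in control arrays and at 6.60, 6.63 and 6.77 in RKIP shRNA arrays. It rose by 0.97 (SE 0.08, limma adjusted p = 0.00060), a difference close in size to that of PRDX1, though the pair was not tested against each other. PRDX3, the mitochondrial peroxiredoxin, rose by 0.46 (SE 0.07, limma adjusted p = 0.0043). PRDX6, which uses glutathione in place of thioredoxin, had a difference of 0.12 and did not pass. PRDX2, the closest cytosolic relative of PRDX1, had a difference of -0.25 (limma adjusted p = 0.060) and was dim, with means of 3.73 and 3.47 below the median of all values, so that its difference may be compressed by background.

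Of 24 measured genes of the peroxiredoxin and thioredoxin system 5 rose, 1 fell and 18 did not pass, with a median log2 difference of 0.13. These are 20.8% higher and 4.17% lower, where 10.0% and 10.2% were called over all genes. MSRB1, a selenoprotein that reduces oxidised methionine with electrons from thioredoxin, rose most. It stood at 5.90, 5.57 and 5.44 in control and at 6.92, 6.99 and 6.73 in RKIP shRNA arrays, a rise of 1.25 (SE 0.13) or 2.37-fold (limma adjusted p = 0.0014). TXNDC17, a thioredoxin-related protein of the cytosol, rose by 0.76 and GLRX5, a mitochondrial glutaredoxin of iron-sulfur cluster assembly, by 0.30. The gene that fell was TXNRD3, a thioredoxin reductase best known from testis, at -0.31. TXNRD1, the cytosolic reductase that recycles the TXN product and is itself an NRF2 target, stood at 7.62, 7.38 and 7.68 in control and at 7.84, 7.72 and 7.78 in RKIP shRNA arrays. Its groups did not overlap, but its difference of 0.22 did not pass (limma adjusted p = 0.17). TXNIP, which binds and inhibits thioredoxin, had a difference of -0.12 and did not pass (limma adjusted p = 0.29). GLRX5 lost its call without control replicate 2 or 3 or RKIP shRNA replicate 1 or 2 (limma adjusted p up to 0.075). TXNRD3 kept its call only without control replicate 1 (limma adjusted p up to 0.095).

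Of 5 measured clients of thioredoxin none rose and 1 fell by limma, while 2 had an upward difference at an unadjusted p under 0.05. The shares called were 0% higher and 20% lower, where 10.0% and 10.2% were called over all genes. Nothing is read from counts this small. MAP3K5, the ASK1 kinase that reduced thioredoxin holds inactive, fell by 0.40 (SE 0.08, limma adjusted p = 0.015). It lost its call without control replicate 2 or 3 or RKIP shRNA replicate 1 (limma adjusted p up to 0.055).

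TALDO1 belongs to the pentose phosphate pathway. Of 13 measured genes of this pathway and of NADPH supply 4 rose, 2 fell and 7 did not pass. These are 30.8% higher and 15.4% lower, where 10.0% and 10.2% were called over all genes, with a median log2 difference of 0.16. RPIA, the ribose-5-phosphate isomerase of the non-oxidative branch, rose by 0.47 and PRPS1, which turns ribose 5-phosphate into the nucleotide precursor PRPP, by 0.50 (limma adjusted p = 0.013 and 0.0062). DERA, a deoxyribose phosphate aldolase, rose by 0.31 and NADK, which makes NADP from NAD, by 0.33. TKT, the transketolase that works beside transaldolase, stood at 11.13, 11.10 and 11.10 in control and at 10.97, 10.87 and 10.80 in RKIP shRNA arrays. Its difference of -0.23 did not pass (limma adjusted p = 0.066) although the groups did not overlap. PGD, of the oxidative branch, had a difference of 0.18 and did not pass (limma adjusted p = 0.10). The gene of the pathway that fell was H6PD, the hexose-6-phosphate dehydrogenase of the endoplasmic reticulum, at -0.30, and the gene of NADPH supply that fell was NNT, which makes NADPH in mitochondria, at -0.28. RPIA and PRPS1 kept their calls without any 1 array. DERA kept its call only without RKIP shRNA replicate 2, H6PD only without control replicate 2 and NNT only without RKIP shRNA replicate 3, with limma adjusted p-values up to 0.082, 0.12 and 0.080. NADK lost its call without control replicate 1 or 2 or RKIP shRNA replicate 1 (limma adjusted p up to 0.059). H6PD also lost its call after quantile normalisation. The count of genes that fell was 1 without control replicate 2 or RKIP shRNA replicate 3 and 0 without any 1 of the other arrays. The count that rose was 2 without control replicate 1, control replicate 2 or RKIP shRNA replicate 1.

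Of 12 measured regulators of NRF2, KEAP1, DPP3 and SQSTM1 rose and 9 did not pass. These are 25% higher and 0% lower, where 10.0% and 10.2% were called over all genes, with a median log2 difference of 0.19. No regulator fell by limma, and none had a downward difference at an unadjusted p under 0.05. With 12 genes nothing is read from these counts. NFE2L2, which encodes NRF2, stood at 8.02, 8.09 and 7.98 in control and at 8.18, 7.96 and 8.17 in RKIP shRNA arrays, and its groups overlapped. Its difference was 0.08 (SE 0.08, limma adjusted p = 0.61). KEAP1 stood at 8.34, 8.28 and 8.17 in control and at 8.62, 8.64 and 8.71 in RKIP shRNA arrays. It rose by 0.40 (SE 0.07, limma adjusted p = 0.0098). The KEAP1 product restrains NRF2, and a relation between this rise and the 4 targets was not tested. CUL3, the ligase scaffold that KEAP1 recruits, had a difference of 0.28 with groups that did not overlap and did not pass (limma adjusted p = 0.058). DPP3, a peptidase that binds KEAP1 and competes with NRF2, rose most, from 7.68, 7.87 and 7.77 to 8.65, 8.67 and 8.64, a rise of 0.88 (SE 0.07, limma adjusted p = 0.00060). SQSTM1, the autophagy receptor p62 that also binds KEAP1 and is an NRF2 target, rose by 0.33 (limma adjusted p = 0.034) but lost its call in each of the 6 fits that left out 1 array (limma adjusted p up to 0.10). The small MAF genes MAFG and MAFF had differences of 0.16 and -0.25 and did not pass.

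Of 34 other listed NRF2 targets 13 had a value. SQSTM1 rose, BLVRA fell and 11 did not pass. These shares, 7.69% in each direction, lie near the 10.0% higher and 10.2% lower over all genes, so nothing is read from the count. The median log2 difference was -0.09. HMOX1, the haem oxygenase gene that NRF2 and BACH1 control, stood at 4.52, 4.69 and 4.86 in control and at 4.45, 4.63 and 4.61 in RKIP shRNA arrays. The groups overlapped, and the difference was -0.13 (SE 0.10, limma adjusted p = 0.47). The fall of BLVRA, biliverdin reductase A, which acts after haem oxygenase, was 0.44 on the log2 scale (limma adjusted p = 0.029), and BLVRA kept its call only without RKIP shRNA replicate 3 (limma adjusted p up to 0.087). GSR, which reduces oxidised glutathione with NADPH, had groups that did not overlap and did not pass at 0.26 (limma adjusted p = 0.062).

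Of 25 measured genes of the glutathione system 5 rose, 3 fell and 17 did not pass, with a median log2 difference of 0.06. The share that rose was 20%, against 10.0% over all genes, and the share that fell, 12%, was near the 10.2% over all genes. GSTP1, a glutathione transferase, rose by 0.72 (SE 0.07, limma adjusted p = 0.0011) and GPX1, the cytosolic glutathione peroxidase, by 0.51 (SE 0.08, limma adjusted p = 0.0047). The transferase genes GSTO1, GSTK1 and MGST1 rose by 0.48, 0.30 and 0.27. GLO1, the glyoxalase that clears methylglyoxal, fell by 0.78 (SE 0.13, limma adjusted p = 0.0068). GSTM4 and GSTM2 fell by 0.68 and 0.63, but these transferase genes are closely similar copies, so their signals may not be separate. GSTP1, GPX1, GLO1 and GSTM4 kept their calls without any 1 array. GSTK1 lost its call without control replicate 1 or 3 or RKIP shRNA replicate 1 or 3, GSTM2 without control replicate 1 or 2, GSTO1 without any array but RKIP shRNA replicate 2, and MGST1 without any of the 6 (limma adjusted p up to 0.085, 0.066, 0.11 and 0.12). The count of genes that rose was 2 without control replicate 1, control replicate 3 or RKIP shRNA replicate 1, and 3 without control replicate 2 or RKIP shRNA replicate 3.

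Among 5 other measured scavenging genes PARK7, the redox sensor DJ-1, rose by 0.44 (SE 0.06, limma adjusted p = 0.0034), and the catalase gene CAT had a difference of -0.01 and did not pass. None fell by limma, and none had a downward difference at an unadjusted p under 0.05. The shares of scavenging genes called were 20% higher, or 1 gene, and 0% lower, against 10.0% and 10.2% over all genes. With 5 genes nothing is read from them. Of 10 measured genes that generate oxidants 2 rose and 1 fell, and 6 were dim in at least 1 group. The shares called among these 10 were 20% higher and 10% lower. Over all genes 10.0% and 10.2% were called, and nothing is read from counts this small. EPX, the eosinophil peroxidase, which uses hydrogen peroxide, rose from 5.30 ± 0.13 to 10.23 ± 0.10 (SD, n = 3 each), or 30.6-fold (limma adjusted p = 1.8e-06). MPO, the myeloperoxidase of azurophil granules, rose by 0.26 (limma adjusted p = 0.041) and lost its call without any 1 of the 6 arrays (limma adjusted p up to 0.11). ERO1B, an oxidase that forms disulfide bonds in the endoplasmic reticulum and releases hydrogen peroxide, fell by 0.95 (SE 0.09, limma adjusted p = 0.00075), whereas its paralog ERO1A had a difference of -0.01 and did not pass. The difference between ERO1A and ERO1B was not tested.

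**Figure D3:**
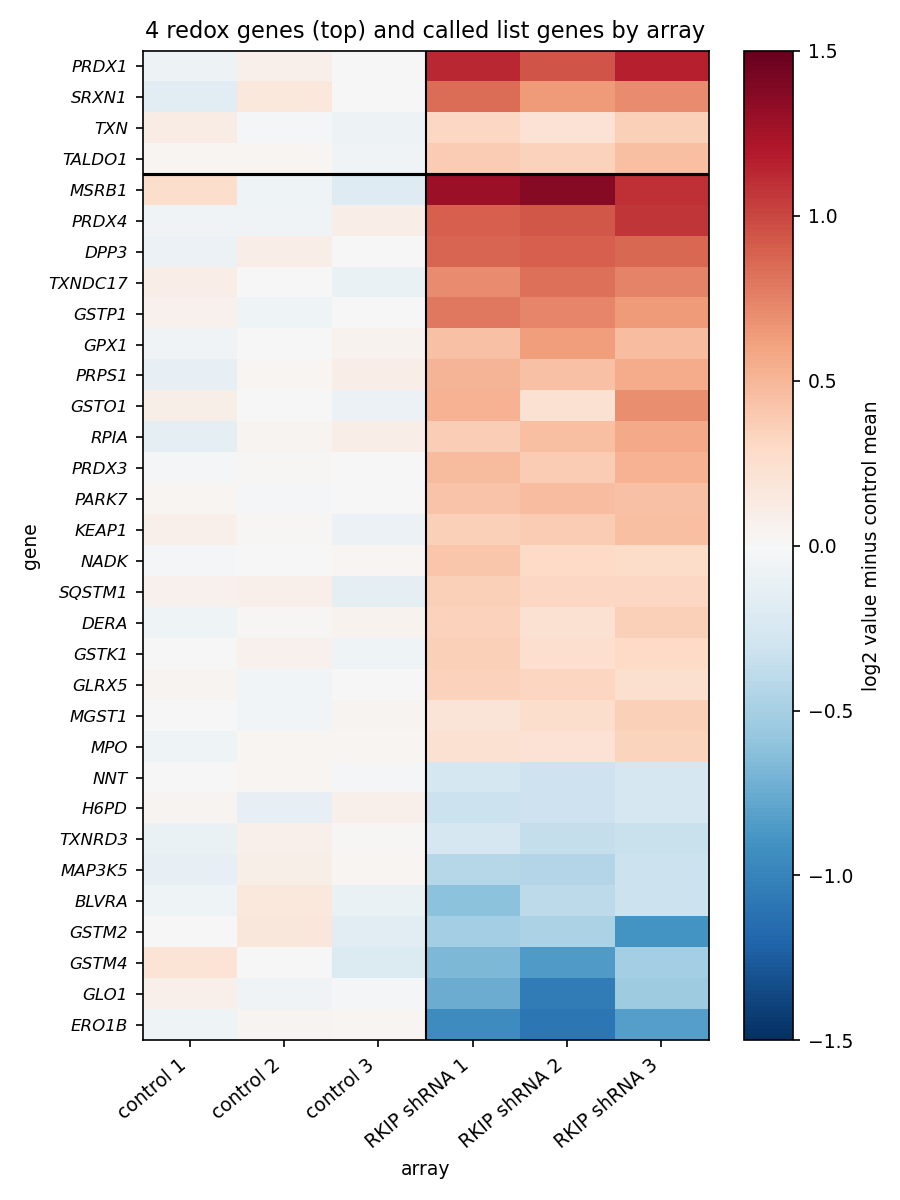
Log2 value minus the control mean in each of the 6 arrays for PRDX1, SRXN1, TXN and TALDO1 (above the line) and for the 28 list genes that passed the test other than EPX, ordered by their difference. The colour scale runs from -1.5 to 1.5, and MSRB1, PRDX4 and DPP3 show the largest rises and ERO1B and GLO1 the largest falls among the genes drawn below the line.

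The antioxidant response element core TGACNNNGC was looked for in the 250 bases before the start of the list genes as well. It was present in 3 of 18 genes that rose and had a RefSeq window, in 0 of 9 that fell and in 12 of 56 that did not pass, where 11% of all windows held it. The sites in GSTO1, GSTP1 and PARK7 are shown with flanking bases because these are the 3 genes with a match among the redox genes called higher. Each is written 5′ to 3′ along its gene on the plus strand of GRCh38.p14, with the core in capitals.
GSTO1 at chr10:104254658-104254682: cggagggaTGACTGAGCatttataa
GSTO1 at chr10:104254723-104254747: agatgcttTGACACAGCcccttaag
GSTP1 at chr11:67583738-67583762: cggcgccgTGACTCAGCactggggc
PARK7 at chr1:7961620-7961644: gccggacgTGACGCAGCgtgaggcc
The GSTP1 core contains the AP-1 letters TGACTCA as its first bases, so the 2 motifs overlap there. TXNRD1, which did not pass, held a core starting 99 bases before its start. The sites of the 12 genes that did not pass are not shown. Some of these genes, such as TXNRD1, XDH and PGD, had an upward difference, and others, such as MAFF and RPE, a downward one. Nothing is read from the counts of matches. A match is a description of the letters and does not show that a factor was bound in these cells.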

How the data were processed

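The deposited table held 53617 rows of log2 values for 6 arrays, made by the authors with a summarisation and normalisation not given in the sources used here. The log2 scale of the deposited values was inferred from their span of 0.72 to 14.0. Rows were named through the platform annotation, which gave 1 gene symbol to 16098 rows, several to 0 and left 37519 unnamed here, and all named rows matched the RefSeq gene table of GRCh38.p14 by gene number. For each gene the probe with the highest mean was kept. Promoter windows came from RefSeq and matched 3 of the 4 genes. PRDX1 is named only.

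RKIP shRNA was compared with control with limma 3.58.1 (lmFit, eBayes) under R 4.3.3, 3 arrays against 3, with Benjamini-Hochberg adjustment over 14884 genes and calls under 0.05. The number of arrays limits the precision of every value. The fit was tested on simulated data. The 4 genes and all lists were chosen with earlier results of these data known. Genes named were the 4, PEBP1, a preset set of regulators and enzymes, in each list up to 6 called genes with non-overlapping groups and the smallest p (or, with no call, the 2 largest changes), and the 3 nearest profiles. GSTO1, MGST1, ERO1A and CAT fall outside this rule and were picked after their values were seen, and cell type markers came from their own lists. The labels give no date or batch, so none could be tested. Alternatives were other scalings, probe averaging, a replicate block, another prior, a brightness filter, all rows, a stricter threshold and leaving out each array. Figures were drawn with matplotlib 3.10.9.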

Additional observations from a re-analysis of the deposited data

How the results depend on the processing

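The differences of PRDX1, SRXN1, TXN and TALDO1 moved by less than 1 SD between replicates under quantile normalisation and median centring. TXN was lowest after quantile normalisation, at 0.23. Leaving out 1 of 3 arrays in a group cannot move a difference by 1 such SD, so nothing is read from those fits by this measure. Probe averaging and the replicate block cannot move these differences, since each gene had 1 probe and the design is balanced. None of the values recomputed for the 4 genes and the other named genes changed direction. PEBP1 kept its call throughout, with differences from -1.54 to -1.41 on leaving out 1 array. Counts of small lists moved with the setting. With all 53617 rows in the fit and its adjustment, 839 genes were higher and 935 lower; the redox lists together gave 12 and 4, the peroxiredoxin and thioredoxin list 0 lower, the pentose phosphate and NADPH list 2 higher and 0 lower, the other NRF2 targets 0 in each direction, the glutathione list 2 higher and the oxidant-producing list 1 higher. At an adjusted p under 0.01 the counts were 697 and 775 over all genes, 11 and 2 over the redox lists, 0 lower for the peroxiredoxin list, 0 lower for thioredoxin clients, 1 and 0 for the pentose phosphate list, 0 and 0 for other NRF2 targets, 2 and 1 for glutathione and 1 higher for oxidant production. The trended and robust prior gave 15 lower genes over the redox lists, 3 lower in the peroxiredoxin list, 2 higher and 2 lower among clients, 3 and 3 among other NRF2 targets and 5 higher regulators. Leaving out genes below the median of all values gave the same counts for these lists, except 1 higher and 1 lower client, and 4 lower pentose phosphate genes. CUL3, GSR and TKT passed under this filter, under the trended and robust prior and after quantile normalisation, PGD under the filter and that prior, and PRDX6 under that prior. Quantile normalisation ended the call of H6PD, gave 1 higher client and gave 2 and 2 among other NRF2 targets. The cause of these changes was not tested, apart from the stricter threshold, which alters only the cutoff. With all rows the prior of the fit and the adjustment changed together.

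Same-numbered arrays did not deviate together (correlations of deviations 0.02, 0.00 and -0.02). This cannot settle whether they were cultured or processed as pairs, which the labels do not say. The replicate block gave 13 higher redox genes, 0 lower peroxiredoxin genes, 2 higher and 0 lower pentose phosphate genes, 0 higher other NRF2 targets, 2 higher glutathione genes and 1 higher oxidant-producing gene.

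Leaving out 1 array gave 963 to 1212 higher genes in all, with 969 without control replicate 2, 983 without control replicate 3 and 963 without RKIP shRNA replicate 1. It gave 12 to 18 higher and 4 to 8 lower redox genes, 0 to 1 lower peroxiredoxin genes, 0 to 1 lower clients, 2 to 4 higher and 0 to 1 lower pentose phosphate genes, 0 to 1 higher and 0 to 2 lower other NRF2 targets, 2 to 5 higher glutathione genes and 1 to 2 higher oxidant-producing genes. Of 30 named genes that were called, 16 kept their call without any 1 array. Dim genes limit the depth of the comparison, since no call of detection above background was used here.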
